A study of Danio rerio with 32 samples.

Results

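The genes described here build the posterior body and the tailbud of the zebrafish embryo. They are the caudal homeobox genes cdx4 and cdx1a, the even-skipped homeobox genes evx1 and eve1, the Wnt ligands wnt8a and wnt3a, the FGF ligand fgf8a, and aldh1a2, which makes retinoic acid. They were chosen by name, as 8 symbols, with earlier results of these data known. They were matched to 11 of the 32519 gene IDs of the 12 hpf tables. The gene-name table gives cdx4, cdx1a and eve1 under 1 ID each, and evx1 under 1 ID with a further ID written EVX1. It gives wnt3a and aldh1a2 in capitals under 1 ID each, wnt8a in capitals under 2 IDs, and only FGF8, under 2 IDs, for fgf8a. The table does not say which FGF8 ID is fgf8a and which is another copy, so both are given by ID.

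Embryos labelled as wild-type ABTL, a strain that the study's methods name AB, were collected at 12 hpf (hours post fertilization) as pools of 20 embryos. Uninjected embryos were the control. Adar KD embryos were injected with 1 ng of a morpholino against adar, an antisense oligonucleotide that blocks translation, and Adar OE embryos with 50 pg of adar mRNA, and each of the 3 groups had 3 libraries. Since control embryos received no injection, effects of Adar and of the injection itself cannot be told apart. By the study's methods the 12 hpf embryos came from a single mating pair, so each p-value below measures the spread between pools of siblings.

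The tail of a vertebrate embryo grows from a pool of progenitors in the tailbud. Wnt and FGF ligands made there keep these cells undifferentiated and turn on the caudal genes, which in turn switch on posterior Hox genes. Retinoic acid made by Aldh1a2 in the older somites opposes the FGF signal and is broken down in the tailbud by Cyp26a1. Zebrafish that lack cdx4 or wnt3a and wnt8a form a shortened tail. The study scored the body axis of Adar-manipulated embryos. It also compared RNA of these 12 hpf groups, and named cdx4 and ved as lower in both KD and OE and msgn1 and tbx16 as lower in KD. The study further named vox, dusp6 and ctnnb2 as lower in OE, and msgn1 as higher in OE than in KD. The values here come from the same libraries, and address whether RNA of the genes that build the posterior end of the axis differed at 12 hpf.

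All levels are normalized counts, which are the reads of a gene in a library divided by that library's size factor. Libraries had between 584494 and 1055718 reads on the genes analysed here. Their numbers run from the largest to the smallest size factor within a group, not by the labels' replicate numbers. The number of genes with at least 1 read was 17460 to 21229 in the control libraries, 22810 to 26331 in the KD libraries and 26176 to 27526 in the OE libraries. Each library resembled its own group most, by the mean Spearman correlation, but the KD libraries stood close to another group. KD libraries 1 and 3 both had 0.82 with the other KD libraries, beside 0.80 and 0.79 with control. KD library 2 had 0.77 with the other KD libraries and was nearer to OE (0.72) than to control (0.64). Marker genes of the labelled tissue, the whole embryo, were present for every germ layer, with none of the matched markers at 0 in all libraries. The 4 somite and presomitic mesoderm markers had a summed level of 89.6 to 128 in control, 4.38 to 16.0 in KD and 41.0 to 64.9 in OE. Markers of other tissues moved as well. The summed level of the 3 endoderm markers was 11.0 to 22.5 in control, 34.5 to 50.1 in KD and 18.6 to 40.9 in OE. From control to KD the mean of foxa2 went from 4.03 to 25.6, sox32 from 3.61 to 8.59 and sox17 from 8.14 to 6.19. The 5 neural plate markers summed to 157 to 187 in control, 83.2 to 130 in KD and 114 to 136 in OE. In OE sox2, sox3 and neurog1 had lower means than in control, and pax2a (28.4 to 44.1) and egr2b (6.37 to 12.2) higher ones. The 4 markers of the enveloping layer and periderm summed to 4746 to 8569 in control, 3503 to 6168 in KD and 2204 to 2676 in OE, with 3 called lower in OE against control and 4 in OE against KD. Most of this sum was krt4, whose mean went from 5068 in control to 3825 in KD. From control to KD the mean of krt5 went from 647 to 625, cldne from 94.5 to 177 and epcam from 341 to 381. The part of these tissues in the results was not tested. In pools of whole embryos, fewer cells of a type and less RNA per cell cannot be told apart.

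The level of adar itself went against 2 of the labels. It was 325, 78.7 and 83.4 normalized counts in control libraries 1 to 3, 133, 101 and 89.9 in KD libraries 1 to 3, and 327, 58.1 and 372 in OE libraries 1 to 3. The first library labelled control thus held as much adar RNA as an OE library, and the second library labelled OE held less than any control. Adar RNA did not pass the test in OE against control (log2 difference 0.58, SE 0.64, limma adjusted p = 0.51). A morpholino that blocks translation need not lower the RNA, so the KD level (−0.27, adjusted p = 0.75) checks no label. Control, KD and OE below are the labels of the libraries, and the direction of each result is drawn from these labels.

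**Figure D1:**
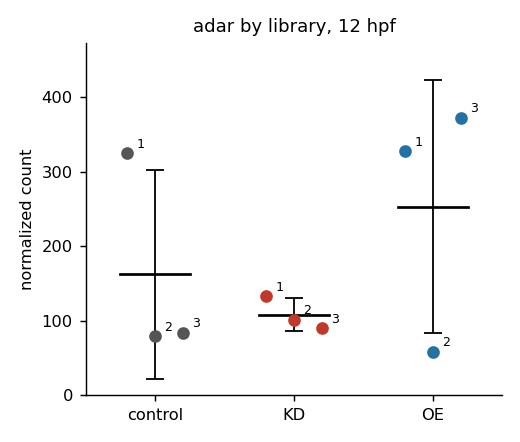
Normalized counts of adar in each of the 9 libraries at 12 hpf, with the library number beside each point and the mean and SD of 3 libraries as bars. Control library 1 (325) lies beside OE libraries 1 and 3 (327 and 372), and OE library 2 (58.1) lies below all other libraries.

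cdx4, a caudal gene expressed across the posterior of the early zebrafish embryo, was lower in both kinds of injected embryo. Its normalized counts were 176, 223 and 232 in control libraries 1 to 3. They were 84.0, 48.8 and 36.4 in KD libraries 1 to 3. They were 88.0, 97.6 and 101 in OE libraries 1 to 3. All 3 groups were apart, with every KD library below every OE library and every OE library below every control library. The mean fell from 210 ± 29.6 (SD, n = 3) in control to 56.4 ± 24.7 in KD, a ratio of 0.27. On the log2(normalized count + 1) scale, which all differences below use, the KD difference was −1.96 (SE 0.34, 95% interval −2.68 to −1.24, limma adjusted p = 0.0033). Over the 14 other settings tried it lay between −2.28 and −1.65, and it passed in all of them.

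In OE the mean of cdx4 was 95.5 ± 6.72, a ratio of 0.45 to control, and the difference was −1.12 (SE 0.22, interval −1.60 to −0.65, adjusted p = 0.0038). In OE, genes of low level tended to rise and genes of high level to fall. The median difference against control was 0.56 in genes with a mean of 10 to 20. It was −0.83 in genes with a mean of 100 to 500, the class of cdx4. In that class 29.4% of the genes had a difference as low as that of cdx4 or lower, against 2.26% in KD. After quantile normalization, which removes such a trend, the OE difference was −0.35 and did not pass (adjusted p = 0.24). The KD difference after the same normalization was −1.65 (adjusted p = 0.0042).

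cdx1a, the other caudal gene of the group, had the largest ratio between control and KD among the members tested. Its normalized counts were 41.2, 52.1 and 41.7 in control libraries 1 to 3. They were 11.7, 7.57 and 2.28 in KD libraries 1 to 3, the last from 2 reads, and 20.7, 33.3 and 16.8 in OE libraries 1 to 3. As for cdx4, no KD library reached an OE library and no OE library reached a control library. The mean fell from 45.0 ± 6.20 (SD, n = 3) in control to 7.18 ± 4.72 in KD, 6.27 times lower. The difference was −2.69 (SE 0.50, interval −3.74 to −1.64, adjusted p = 0.0043), and the call stood in all 13 other settings. cdx1a entered this test through its control level alone, since its KD mean was under the minimum for testing. Its KD difference and call are therefore descriptions. In OE the mean was 23.6 ± 8.62 and the difference −0.95 (SE 0.33, interval −1.66 to −0.24, adjusted p = 0.041). That call was lost in 7 of 14 other settings, among them the scaling to the total on genes (−0.59, adjusted p = 0.23), the quantile normalization (−0.93, adjusted p = 0.075) and the fit of all 9 libraries (adjusted p = 0.13). It was also lost without control library 1 (adjusted p = 0.054), control library 2 (0.12), OE library 1 (0.13) or OE library 3 (0.15).

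The comparison of OE with KD tests whether the injections lowered the caudal genes to a different extent. cdx1a entered this test through its OE level alone, since its KD mean of 7.18 was under the minimum of 10, so its value is a description. It was 3.29 times higher in OE than in KD, with a difference of 1.74 (SE 0.54, interval 0.61 to 2.87, adjusted p = 0.032). The call was lost with voom weights (adjusted p = 0.12) and quantile normalization (0.053), and without KD library 3 (0.11), OE library 1 (0.11), OE library 2 (0.19) or OE library 3 (0.053). cdx4 was 1.69 times higher in OE than in KD and did not pass (0.83, SE 0.31, interval 0.20 to 1.47, adjusted p = 0.062). It passed after scaling to the total on genes (0.96, adjusted p = 0.036), after quantile normalization (1.13, adjusted p = 0.0065), with genes of a mean of at least 50 (adjusted p = 0.034) and without KD library 1 (1.16, adjusted p = 0.029).

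**Figure D2:**
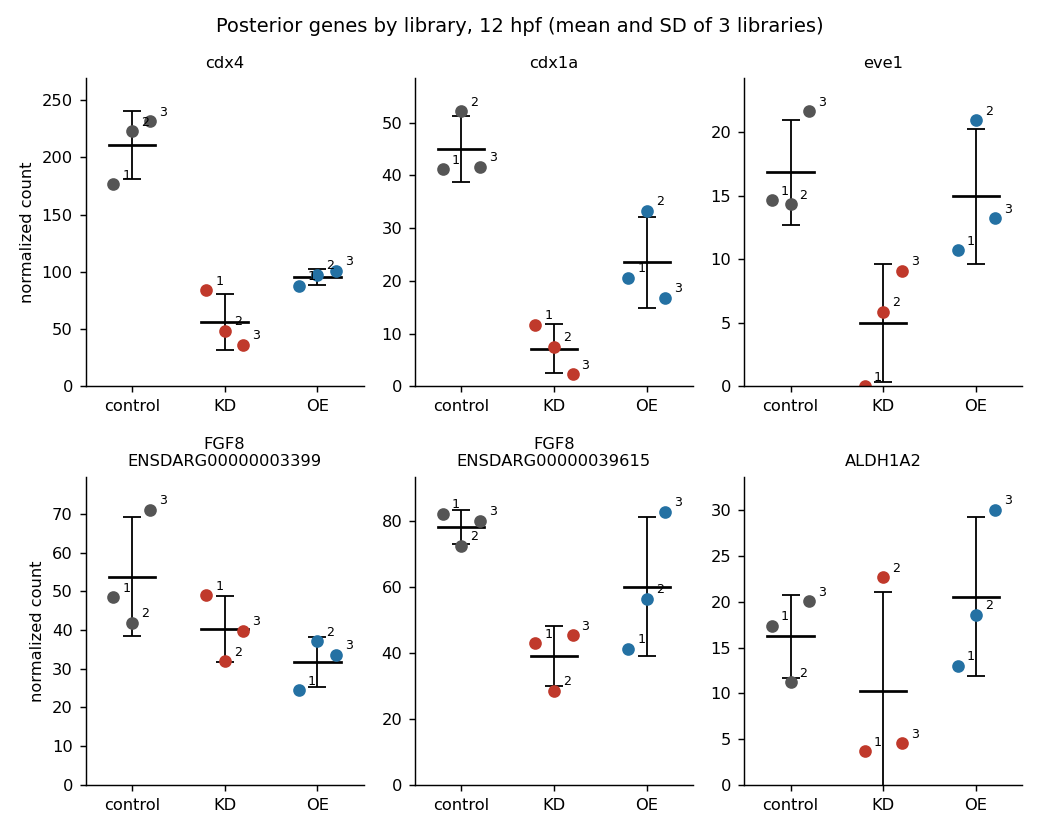
Normalized counts of the 6 member IDs that passed the filter on low values, with 1 panel for each ID, a vertical axis from 0, the library number beside each point, and the mean and SD of 3 libraries as bars. cdx4 and cdx1a show 3 separate groups in the order control, OE, KD, and the other 4 IDs show groups that touch or overlap in at least 1 comparison.

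Among the even-skipped genes, eve1 had enough reads for a test in 2 comparisons. This homeobox gene marks ventral and posterior cells of the zebrafish gastrula and later the tail. Its normalized counts were 14.6, 14.3 and 21.6 in control libraries 1 to 3, 0, 5.88 and 9.11 in KD libraries 1 to 3, and 10.7, 20.9 and 13.2 in OE libraries 1 to 3. The KD libraries lay below all control libraries, and the OE libraries overlapped them. KD library 1, the deepest library, had no read of eve1, which allows up to 2.19 normalized counts, the value of 3 reads. The mean was 16.9 ± 4.13 in control and 5.0 ± 4.62 in KD (SD, n = 3), and the difference of −2.09 (SE 0.89, interval −3.98 to −0.20) did not pass (adjusted p = 0.17). Without KD library 1 it was −1.07. eve1 entered this test through its control level alone, since its KD mean was under the minimum of 10, so its KD values are a description. In OE the mean was 14.9 ± 5.31 and the difference −0.19 (interval −1.09 to 0.71, adjusted p = 0.75). Against KD the mean of eve1 over 6 libraries was 9.97, just under the minimum of 10, so OE and KD were not compared by the test.

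evx1, a further even-skipped gene of the tail and of spinal interneurons, was close to undetected. Its ID had 1 read in all, in OE library 3. A count of 0 allows up to 2.19 to 4.63 normalized counts, depending on the library. The other ID, written EVX1, had 5, 3 and 1 reads in control, 0, 3 and 3 in KD, and 12, 10 and 5 in OE libraries 1 to 3. Its mean was 3.06 ± 1.51 in control, 1.98 ± 1.77 in KD and 7.64 ± 1.59 in OE (SD, n = 3), and the OE libraries lay above all others. It was under the filter and was not tested. The relatives cdx1b and EVX2, listed beside the members, were also under the filter. cdx1b had 0, 2 and 2 reads in control, 2, 6 and 1 in KD and 18, 15 and 9 in OE. EVX2 had between 0 and 8 reads in a library. Genes of low level tended to be higher in OE. With no filter on low values, the median difference over the genes tested was 0.67 in OE against control. In OE against KD it was 0.38. The higher OE counts of EVX1 and cdx1b go in the direction of this background, and whether they exceed it was not tested.

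The Wnt ligands were at the edge of detection. wnt3a, which sustains the tailbud progenitors, had 0, 6 and 0 reads in control libraries 1 to 3, 3, 4 and 1 in KD, and 6, 2 and 1 in OE. Its mean normalized counts were 2.04 ± 3.54 in control, 2.23 ± 1.1 in KD and 2.45 ± 1.86 in OE (SD, n = 3), so the groups overlapped fully. wnt8a, the ventrolateral Wnt signal of the gastrula, had 1 read in control library 2 and 1 each in OE libraries 1 and 2 at ENSDARG00000052910, and no read in any library at ENSDARG00000078507. No difference in either ligand was detectable at these counts.

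Both FGF8 IDs were measured well enough for a test. Fgf8 is a ligand of the FGF receptors and is made in the tailbud and at the midbrain-hindbrain boundary. FGF8 at ENSDARG00000039615 had 82.3, 72.6 and 80.3 normalized counts in control libraries 1 to 3, 43.1, 28.6 and 45.5 in KD, and 41.3, 56.5 and 82.9 in OE. All KD libraries lay below all control libraries, and the OE libraries spanned the range from KD to control. The mean was 78.4 ± 5.13 in control and 39.1 ± 9.17 in KD (SD, n = 3), a ratio of 0.50, and the difference of −1.01 (SE 0.32, interval −1.70 to −0.33) did not pass (adjusted p = 0.068). With the spread estimated over all 9 libraries it passed (adjusted p = 0.039). In OE the mean was 60.2 ± 21.0 and the difference −0.43 (interval −1.04 to 0.18, adjusted p = 0.26). OE against KD gave 0.58 (interval −0.09 to 1.25, adjusted p = 0.20).

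FGF8 at ENSDARG00000003399 was ordered in another way. It had 48.5, 41.9 and 71.0 normalized counts in control libraries 1 to 3, 48.9, 31.9 and 39.8 in KD, and 24.5, 37.2 and 33.6 in OE. Here the OE libraries lay below all control libraries and the KD libraries overlapped both groups. The mean was 53.8 ± 15.3 in control, 40.2 ± 8.50 in KD and 31.8 ± 6.55 in OE (SD, n = 3). No difference passed. It was −0.40 (interval −1.12 to 0.33, adjusted p = 0.53) in KD, −0.73 (interval −1.39 to −0.07, adjusted p = 0.085) in OE and −0.33 (interval −0.99 to 0.33, adjusted p = 0.48) for OE against KD.

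aldh1a2, the main enzyme of retinoic acid synthesis in the embryo, varied most within the KD group. Its normalized counts were 17.4, 11.2 and 20.1 in control libraries 1 to 3, 3.65, 22.7 and 4.55 in KD, and 13.0, 18.6 and 30.0 in OE. KD library 2, which was nearer to OE than to control over all genes, had a level like that of control and OE, and the other KD libraries lay below every other library. The difference was −0.98 (SE 0.66, interval −2.38 to 0.41, adjusted p = 0.40) in KD, or −1.72 (adjusted p = 0.19) without KD library 2 and −0.55 (0.68) without KD library 1. It was 0.28 (interval −0.62 to 1.19, adjusted p = 0.63) in OE. OE against KD gave 1.27 (interval 0.07 to 2.47, adjusted p = 0.13), and without KD library 2 it passed, at 2.01 (adjusted p = 0.0072). The caudal calls did not rest on this library. Without it cdx4 and cdx1a in KD had differences of −1.90 (adjusted p = 0.017) and −2.83 (adjusted p = 0.020), the cdx1a value being a description.

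**Figure D3:**
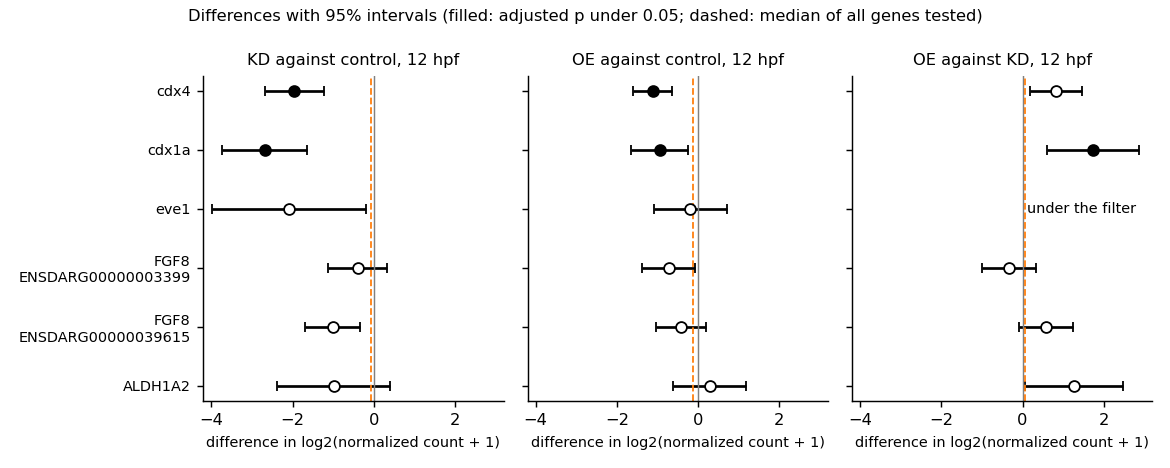
Differences in log2(normalized count + 1) for the 6 member IDs in the 3 comparisons, with 95% intervals, filled points where the limma adjusted p was under 0.05, and a dashed line at the median of all genes tested. cdx4 and cdx1a lie to the left in KD (−1.96 and −2.69) and in OE (−1.12 and −0.95), and cdx1a lies to the right in OE against KD (1.74).

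In KD against control, 6 of the 11 member IDs passed the filter, and 2 of them fell and none rose. Over all 9781 genes tested, 4.29% were called lower and 2.36% higher. Of the 6 IDs, 4 had KD libraries that all lay below the control libraries, cdx4, cdx1a, eve1 and FGF8 at ENSDARG00000039615, a pattern seen in 16.4% of all genes. The median difference of the 6 was −1.48 against −0.07 over all genes. The IDs counted, here and in the OE comparisons below, include both FGF8 IDs, and which of them is fgf8a is not known here. cdx1a and eve1 passed the filter through their control level alone, since their KD means were under 10, so these counts are a description.

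In OE against control, the same number of IDs passed the filter, 2 fell and none rose, beside 17.5% of the 10882 genes called lower and 14.8% called higher. The OE libraries lay below all control libraries in 3 of the 6 IDs, cdx4, cdx1a and FGF8 at ENSDARG00000003399, and in 26.8% of all genes. The median difference was −0.58 against −0.13 over all genes. In OE against KD, 5 IDs passed the filter, 1 was called higher and none lower, beside 8.28% and 9.46% of the 11853 genes tested. That call was cdx1a, which passed the filter through its OE level alone. The OE libraries lay above all KD libraries in 2 of these 5 IDs, cdx4 and cdx1a, and in 18.5% of all genes. KD and OE were set against the same control libraries, so their differences from control are not independent.

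Without both libraries whose adar level went against the label, the OE calls of cdx4 (−1.26, adjusted p = 0.024) and cdx1a (−1.28, adjusted p = 0.049) stood. This setting was not planned and was chosen from the adar levels. Without control library 1 the KD calls stood as well, at −2.08 (adjusted p = 0.0052) for cdx4 and −2.75 (adjusted p = 0.011) for cdx1a, the latter as a description. The scaling to the total on genes moved the median of all genes from −0.07 to 0.16 in KD and from −0.13 to 0.22 in OE. Relative to the median of all genes in the main scaling, cdx4 was at −1.88 in KD and −0.99 in OE, and cdx1a at −2.62 in KD and −0.82 in OE. That median does not allow for level. In genes with a mean of 100 to 500, the class of cdx4, the median was −0.40 in KD and −0.83 in OE. In genes with a mean of 20 to 50, the class of cdx1a, it was −0.07 in KD and −0.18 in OE.

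**Figure D4:**
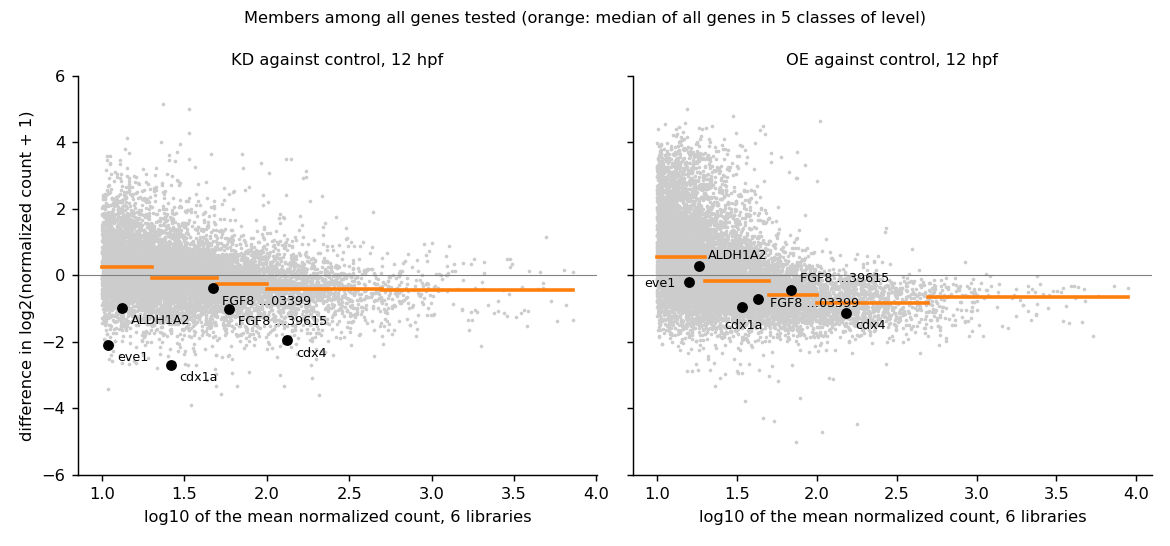
Difference in log2(normalized count + 1) against the log10 of the mean normalized count over the 6 libraries of a comparison, for all genes tested (grey) and the 6 member IDs (black), with the median of all genes in 5 classes of level (orange). In KD cdx4, cdx1a and eve1 lie at the lower edge of the genes of their level, and in OE the orange medians run from 0.56 to −0.83, with cdx4 below that of its class.

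Some genes followed a member closely over the 9 libraries. Likeness was measured, as a description with no test, as the root mean square difference of log2 values after each gene was centred on its own mean, among 2769 to 2770 genes with a mean of at least 50. The genes nearest to cdx1a were nr2f5, a nuclear receptor gene (0.46), and cdx4 (0.53). The nearest to cdx4 were srrm2, which encodes a splicing protein (0.28), and FEN1, a flap endonuclease (0.29). eve1 was nearest to HDC (0.53) and HOXC10 (0.59), and ALDH1A2 to MYO18A (0.41) and ZC3H4 (0.54). FGF8 at ENSDARG00000003399 was nearest to BRD7 (0.12) and RAB10 (0.14), and FGF8 at ENSDARG00000039615 to bricd5 (0.11) and SEC22B (0.19). All of these genes share the libraries and their depth, and a flat pattern finds near neighbours more easily than the steep pattern of the caudal genes.

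The following lists were chosen with earlier results of these data known, so their counts are descriptions. The counts stand beside the shares over all genes given above. These were 4.29% lower and 2.36% higher in KD and 17.5% lower and 14.8% higher in OE, with medians of −0.07 and −0.13. For OE against KD they were 9.46% lower and 8.28% higher, with a median of 0.05. Of 11 further genes of tailbud progenitors, 9 were tested in KD, 3 fell and none rose, with a median of −0.60. The genes that fell, msgn1, tbx16 and ved, had all been named by the study as lower in KD. Without control library 1 the number that fell was 2, and without KD library 2 it was 1, with a median of −0.19. Over all genes tested, 420 fell with all libraries, 372 without control library 1 and 184 without KD library 2. msgn1, which drives progenitors into presomitic mesoderm, fell from 65.3 normalized counts in control to 4.16 in KD (−3.91, SE 0.53, adjusted p = 0.00055). It passed the filter through its control level alone, since its KD mean was under 10, so this value is a description. Its counts were 62.2, 85.9 and 47.9 in control, 2.92, 8.41 and 1.14 in KD, and 23.7, 18.6 and 28.8 in OE libraries 1 to 3. Like the caudal genes, it was lowest in KD and between in OE. ved, a ventral homeobox repressor, also fell in KD (−1.25, adjusted p = 0.042), a call lost without control library 2 (adjusted p = 0.098), control library 3 (0.094), KD library 1 (0.11) or KD library 2 (0.14) and after scaling to the total on genes (0.057). tbx16 fell too (−1.47, adjusted p = 0.018), a call lost without control library 1 or KD library 2. Its values in the other settings are not given here. The tested genes not called went both ways. Higher in KD were noto (1.97, adjusted p = 0.065), tbx16l (1.03, adjusted p = 0.080) and tbx6 (0.13), and lower were vox (−0.70) and SOX2 (−0.60). tbxta was level with control (0.0069, adjusted p = 0.99). The control mean of noto was 4.63, under 10, so its value is a description.

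In OE, 8 of the tailbud genes were tested, 5 fell and 1 rose, with a median of −1.10. msgn1 (−1.41, adjusted p = 0.0063), ved (−1.82, adjusted p = 0.0028) and vox, a homeobox repressor related to ved (−1.51, adjusted p = 0.0089), were lower. The others that fell were tbxta (−1.18, adjusted p = 0.036), which was level with control in KD, and SOX2 (−1.03, adjusted p = 0.019). Their values in the other settings are not given here. The msgn1 call was lost without both libraries of discordant adar level (−1.26, adjusted p = 0.053). tbx6, a T-box gene of the presomitic mesoderm, rose from 10.01 to 54.6 normalized counts (2.41, SE 0.37, adjusted p = 0.0017), with 50.5, 60.4 and 52.9 in OE and no more than 14.6 in any control library. OE against KD gave 2 higher and 2 lower of 9 tested, with a median of −0.57. tbx6 (2.28, adjusted p = 0.00026) and msgn1 (2.51, adjusted p = 0.012) were higher, and tbx16l (−1.25, adjusted p = 0.010) was among the lower. msgn1 entered this test through its OE level alone, so its value here is a description. That msgn1 call was lost with voom weights (adjusted p = 0.066) or without OE library 1 (0.093), OE library 2 (0.053) or OE library 3 (0.10).

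The retinoic acid list held 24 gene IDs beside aldh1a2. In KD, 14 were tested, 4 fell and none rose, with a median of −0.38. The 3 named here were CRABP2 at ENSDARG00000073978, a retinoic acid binding protein (−2.69, adjusted p = 0.00083), nr2f5 (−2.43, adjusted p = 0.00073) and RDH10 at ENSDARG00000058730, which makes the substrate of Aldh1a2 (−2.27, adjusted p = 0.0045). CRABP2 had 41.2, 80.8 and 75.7 normalized counts in control, 10.2, 10.1 and 6.83 in KD, and 26.0, 45.7 and 51.7 in OE. It was thus lowest in KD in every library, and the OE level overlapped control. The KD mean of CRABP2 was 9.05, under the minimum of 10, so its differences in both comparisons with KD are descriptions. In OE, 15 were tested, 7 fell and none rose, with a median of −0.77.

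CYP26A1, the enzyme that removes retinoic acid in the tailbud, had its own order. Its normalized counts were 69.5, 104 and 92.6 in control, 240, 96.7 and 159 in KD, and 22.9, 21.7 and 25.2 in OE libraries 1 to 3. It fell in OE (−1.87, SE 0.27, adjusted p = 0.0016), and KD against control gave 0.81 (interval 0.07 to 1.56, adjusted p = 0.17), which passed after quantile normalization (1.15, adjusted p = 0.025). OE against KD gave −2.68 (adjusted p = 1.2e-05), the largest difference of the list, where 3 of 14 genes were higher and 4 lower, with a median of −0.03. nr2f5 (1.66, adjusted p = 0.0019) and CRABP2 (2.03, adjusted p = 0.0015) were higher in OE than in KD, and RDH10 did not pass (0.95, adjusted p = 0.12). In OE against control, RDH10 (−1.32, adjusted p = 0.021) and nr2f5 (−0.77, adjusted p = 0.045) were called lower. The nr2f5 call was lost in 9 other settings, among them the quantile normalization (adjusted p = 0.60) and leaving out control library 2 (0.13), control library 3 (0.074), OE library 1 (0.098), OE library 2 (0.077) or OE library 3 (0.15), and that of RDH10 was lost after scaling to the total on genes (0.068) or without OE library 1 (0.051) or OE library 2 (0.087).

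The Wnt list held 35 gene IDs, of which 27 were tested in KD, with 1 lower, none higher and a median of 0.18. The gene that fell was FZD10, a Frizzled receptor (−2.40, SE 0.32, adjusted p = 0.00051), with 86.0, 79.8 and 83.4 normalized counts in control, 16.1, 15.1 and 13.7 in KD, and 36.7, 71.2 and 42.1 in OE. It showed the same order of means as the caudal genes. In OE against control FZD10 did not pass (−0.78, adjusted p = 0.052), except in 5 other settings (adjusted p = 0.028 to 0.046), among them those without control library 3 or OE library 2, and in OE against KD it was higher (1.62, adjusted p = 0.0035). In OE, 28 were tested, 6 fell and 2 rose, with a median of −0.36, which is near the 17.5% of all genes called lower and under the 14.8% called higher. Among those that fell were SFRP1 at ENSDARG00000035521, a secreted Wnt antagonist (−1.41, adjusted p = 0.0083), ctnnb2, a beta-catenin gene (−1.30, adjusted p = 0.0089), and FZD7 at ENSDARG00000027589 (−0.98, adjusted p = 0.029).

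After quantile normalization the OE calls of ctnnb2 (−0.63, adjusted p = 0.095) and FZD7 (−0.37, adjusted p = 0.40) were lost, and that of FZD7 was also lost after scaling to the total on genes (0.18) and without control library 2 (0.13), OE library 2 (0.10) or OE library 3 (0.098). OE against KD, with 27 tested, gave 2 higher and 6 lower and a median of −0.28. SFRP1 (−2.07, adjusted p = 0.00036), ctnnb2 (−1.78, adjusted p = 0.00075) and FZD7 (−1.65, adjusted p = 0.0012) were lower in OE. In KD against control they did not pass, with differences of 0.66, 0.47 and 0.67, but SFRP1 (0.91, adjusted p = 0.0497) and FZD7 (1.02, adjusted p = 0.047) passed after quantile normalization.

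The FGF list held 23 gene IDs beside both FGF8 IDs. In KD none of 15 tested passed, with a median of −0.27. In OE 17 were tested, 3 fell and 1 rose, with a median of −0.58, so the number that fell was at the share over all genes (17.5%). fgfr4, an FGF receptor gene (−1.30, adjusted p = 0.0027), DUSP6, a phosphatase that damps the FGF signal (−1.06, adjusted p = 0.015), and SPRY2, a feedback inhibitor of FGF receptors (−1.44, adjusted p = 0.048), fell, and FGFRL1, a receptor that lacks a kinase domain, rose (1.35, adjusted p = 0.047). SPRY2 passed the filter through its control level alone, so its OE value is a description. FGFRL1 passed through its OE level alone, here and against KD, so its values are descriptions. After quantile normalization fgfr4 gave −0.52 (adjusted p = 0.12) and DUSP6 −0.34 (adjusted p = 0.39). DUSP6 was also lost without OE library 2 (adjusted p = 0.071) or OE library 3 (0.060), SPRY2 without control library 3 (0.19) or any OE library (0.085 to 0.13), and FGFRL1 without control library 1 (0.055), control library 2 (0.11) or any OE library (0.10 to 0.18). Scaling to the total on genes ended the calls of DUSP6 (0.079) and SPRY2 (0.12). A pseudocount of 0.5 ended those of SPRY2 and FGFRL1 (both 0.052), as did voom weights (0.096 and 0.065). FGFRL1 was also lost after quantile normalization (0.26). OE against KD, with 17 tested, gave 1 higher and 1 lower and a median of −0.21, namely FGFRL1 (1.86, adjusted p = 0.038) and fgfr4 (−1.12, adjusted p = 0.011). The first was lost without any 1 of 5 libraries (0.058 to 0.22) and the second without KD library 1 (0.080) or OE library 1 (0.062). FGFRL1 was also lost here after quantile normalization (0.056) and with voom weights (0.10).

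The list counts in OE against control were lower without both libraries whose adar level went against the label, as was the number called over all genes. Of all 10882 genes tested, 1905 fell and 1615 rose with all libraries, and 1177 fell and 988 rose without these libraries. In the lists, 3 tailbud genes then fell and 1 rose, 4 retinoic acid genes fell and none rose, 3 Wnt genes fell and 1 rose, and 1 FGF gene fell and none rose. Among the named calls other than those of SOX2 and tbxta, those lost there beside msgn1 were RDH10 (adjusted p = 0.13), SFRP1 (0.062), FZD7 (0.058), DUSP6 (0.099), SPRY2 (0.087) and FGFRL1 (0.12). CYP26A1 and tbx6 passed without these libraries as well.

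**Figure D5:**
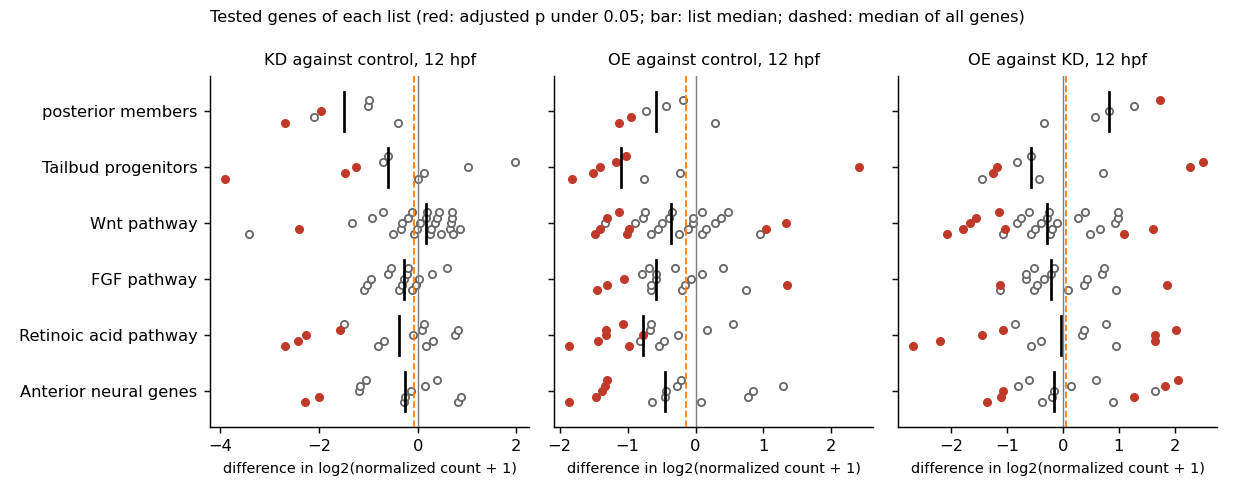
Difference in log2(normalized count + 1) of each tested gene in the members and the 5 other lists with tested genes, in the 3 comparisons, with red points where the limma adjusted p was under 0.05, a bar at the median of the list and a dashed line at the median of all genes. The member median is −1.48 in KD, −0.58 in OE and 0.83 in OE against KD, and the tailbud list has red points on both sides in OE (msgn1 at −1.41, tbx6 at 2.41).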

How the data were processed

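The members and lists were chosen with earlier results of these data known. Per the labels, the authors used STAR 2.7.7a, SAMtools 1.11, HTSeq 0.11.2 and DESeq2 in R 3.6.3, with GRCz10. For each pair of groups at 12 hpf they deposited 1 table, of which only the mean normalized count, here a signal, was used. Its other columns hold the authors' own fold changes and p-values and were not used. Antisense reads cannot be told from sense reads, since the counting setting is not given in the sources used here.

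The 3 tables share 9 size factors, so sums and differences of their means give the summed normalized count of each group, a sum of 3 whole counts each divided by a size factor. Whole counts of all 9 libraries were solved for 32509 of 32519 genes (99.97%), with a largest misfit of 3.9e-11. The 10 genes not solved hold 17.0% of the gene counts and are not analysed here. The totals on genes, and the scaling to them, leave these genes out. Size factors recomputed from these counts lay within 0.094% of those read from the tables. The solution gives the group of a library, not its replicate number. On average 89.3% of normalized counts were assigned to no gene, 7.92% had more than 1 alignment, 0.037% were ambiguous and 2.75% lay on genes; the first 3 classes were left out.

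Each comparison used limma 3.58.1 in R 4.3.3 with a mean-variance trend on log2(normalized count + 1) of its own 6 libraries, 2-sided, over genes with a mean of at least 10, with Benjamini-Hochberg adjustment over all genes tested and a threshold of 0.05. Tables and plots were made with Python 3.11.15, pandas 2.3.3 and matplotlib 3.10.9. Scripts were tested on simulated data. Alternatives were pseudocounts of 0.5 and 5, no filter, a mean of at least 50, scaling to the total on genes, quantile normalization, all 9 libraries in 1 fit, voom weights, and leaving out each library. For OE against control, an unplanned setting left out control library 1 and OE library 2 together, because of their adar levels. Named were all members, adar, up to 4 called genes of each list with the largest difference in any comparison, and the 2 genes nearest in pattern to each member with a mean of at least 10 over the 9 libraries. For KD against control, the other tested tailbud genes were named as well. So were SOX2 and tbxta in OE against control and tbx16l in OE against KD. A called gene of the anterior neural list is not reported here by name. Lists were the members, caudal and even-skipped relatives, tailbud progenitors, Wnt, FGF, retinoic acid and anterior neural genes, and 2 of 118 names had no match. Symbols without a zebrafish match were matched in capitals or without their last letter.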

Additional observations from a re-analysis of the deposited data

How the results depend on the processing

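The number of genes called was 651 in KD against control, 3520 in OE against control and 2102 in OE against KD. In KD it was 1313 with all 9 libraries in 1 fit. In OE it was 8675 with no filter on low values (6811 higher, 1864 lower), 1447 with a mean of at least 50 (34 higher, 1413 lower) and 2165 without control library 1 and OE library 2, and it turned from 1615 higher and 1905 lower to 2069 higher and 832 lower after scaling to the total on genes. In OE against KD it was 831 with a mean of at least 50 and 1215 with all 9 libraries. Leaving out each library gave 260 to 714 genes in KD, 1750 to 3598 in OE and 802 to 4093 in OE against KD. The highest of these was without KD library 2. The split of KD calls, 231 higher and 420 lower, was 359 and 300 after scaling to the total on genes and 366 and 375 after quantile normalization. In OE against KD, 981 were higher and 1121 lower, and 1068 and 844 after scaling to the total on genes. The cause of these moves was not tested.

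cdx4 passed in KD in all 14 other settings, and cdx1a in the 13 in which it was tested, since it was under the minimum of 50. The cdx1a calls in KD are descriptions, since its KD mean was under the minimum for testing. Differences that did not pass changed sign in a few settings. After quantile normalization adar (0.031) and tbx6 (−0.15) turned in KD, FGF8 at ENSDARG00000039615 (0.10) and ALDH1A2 (−0.038) in OE, and rx3 (−0.11) in OE against KD, and fgfr4 in KD turned there (0.24) and after scaling to the total on genes (0.052), where eve1 in OE also turned (0.16). When each library was left out, the KD differences ranged from −0.63 to 0.39 for adar, −0.19 to 0.42 for tbx6, −0.58 to 0.15 for SPRY2 and −0.45 to 0.081 for fgfr4. The OE differences ranged from −0.44 to 0.0073 for eve1 and −0.021 to 0.55 for ALDH1A2, and OE against KD from −0.42 to 0.95 for rx3. No paired analysis was possible because the tables carry no replicate numbers. Few reads limit evx1 (both IDs), wnt8a and wnt3a, which had at most 12 reads in a library. The cause of these low counts was not tested.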

Other observations

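The list of anterior neural genes, for the other end of the axis, held 16 gene IDs. In KD, 12 were tested, 2 fell and none rose, with a median of −0.26, beside 4.29% of all genes called lower and a median of −0.07. These were SIX3 at ENSDARG00000054879, a homeobox gene of the forebrain (−2.28, adjusted p = 0.0036), and rx3, which specifies the eye field (−2.0, adjusted p = 0.0080). Both had a KD mean under 10 (9.61 and 8.48) and passed the filter through their control level alone, so these values are descriptions. In OE, 14 were tested, 5 fell and none rose, with a median of −0.45, beside 17.5% of all genes called lower, 14.8% called higher and a median of −0.13. Here rx3 (−1.86, adjusted p = 0.029) and SIX3 (−1.38, adjusted p = 0.033) were again lower. The SIX3 counts were 38.4, 48.1 and 58.7 in control, 7.30, 6.72 and 14.8 in KD and 41.3, 10.8 and 12.0 in OE libraries 1 to 3, so OE library 1 lay within the control range. Its OE call was lost without control library 2 (adjusted p = 0.078), OE library 2 (0.13) or OE library 3 (0.12), and that of rx3 without control library 2 (0.061), OE library 1 (0.057) or OE library 3 (0.078). Scaling to the total on genes also ended both OE calls (adjusted p = 0.12 for SIX3 and 0.081 for rx3), and leaving out both libraries with an adar level against the label ended that of SIX3 (0.13). Quantile normalization ended the SIX3 call as well (0.053).

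In OE against KD, 15 anterior genes were tested, with 3 higher, 3 lower and a median of −0.15, beside 8.28% of all genes called higher, 9.46% lower and a median of 0.05. PAX6 at ENSDARG00000103379, a gene of the eye and brain, was higher in OE (1.84, adjusted p = 0.033). It entered this test through its OE level alone, since its KD mean was 6.17, so its value is a description. This call was lost without any single library except KD library 2, with adjusted p from 0.073 to 0.17. It was also lost after quantile normalization (0.054) and with voom weights (0.072). These values rest on the libraries as labelled, and 2 of them, control library 1 and OE library 2, had an adar level against the label.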
